A study of Mus musculus with 57 samples.

Results

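Genes of the proteasome were followed in single prostate cancer cells from mouse bone, and were taken as every gene whose symbol begins with Psma, Psmb, Psmc, Psmd, Psme, Psmf or Psmg. The rule found 49 genes among the 12887 gene rows of the table of all cells, and no measured value entered the choice. They comprise 7 genes of the alpha ring, 7 constitutive genes of the beta ring, 6 ATPases of the base, 11 other subunits of the base and lid, 7 assembly chaperones, 3 activators or inhibitors, and the 5 interferon-inducible genes Psmb8, Psmb9, Psmb10, Psme1 and Psme2. The remaining 3 carry the name without being subunits in their own right: Psmb7-ps2 is a pseudogene, Psmc3ip encodes a recombination factor, and Psme2b is a close copy of Psme2.

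RM1 is a mouse prostate cancer line, here carrying genes for the fluorescent protein eCFP and for luciferase (luc2). All mice were C57BL/6 animals that had received RM1 cells, stained beforehand with the membrane dye PKH26, by injection into the heart, with no further treatment listed. Dividing cells dilute the dye, so cells that still held it were sorted from bone as dormant (28 cells, 6 mice, days 14 to 26 after injection) and cells without it as proliferating (29 cells, 6 mice, days 13 to 18). Cells of both states came from 4 of the 8 mice. The line is a single transplanted tumour line, and dormancy rests on dye retention alone.

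The proteasome is a barrel of alpha and beta rings that cuts proteins marked with ubiquitin, capped by a regulatory particle whose ATPases unfold the substrate and feed it in. Psmb5, Psmb6 and Psmb7 encode the constitutive catalytic subunits. Under interferon gamma, and constitutively in many blood cells, newly built barrels take in Psmb8 in place of Psmb5, Psmb9 in place of Psmb6 and Psmb10 in place of Psmb7, forming the immunoproteasome, while Psme1 and Psme2 form a ring-shaped activator that opens the barrel. These changes favour peptides that fit class I molecules of the major histocompatibility complex.

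Promoter windows from RefSeq (GRCm38.p6, 250 bases before to 50 after the start that RefSeq gives) matched 41 of the 49 genes, with 44 windows. The 8 without one were Psmb1, Psmb2, Psmb7, Psmb7-ps2, Psmc3, Psmd3, Psmd7 and Psmg2. Psmb8 and Psmb9 are shown because their levels went together from cell to cell (Spearman's rho 0.687 over 57 cells), Psme1 as an inducible activator gene, and Psmb5 as the constitutive counterpart of Psmb8. Psmb8 lies at chr17:34197945-34198244 (plus strand), Psmb9 at chr17:34187281-34187580 (minus strand), Psme1 at chr14:55578244-55578543 (plus strand) and Psmb5 at chr14:54617946-54618245 (minus strand). Psmb8 and Psmb9 are thus neighbours on chromosome 17, in the class II region of the major histocompatibility complex. In the GENCODE M21 annotation Psmb8 begins at 34197721, Psmb9 at 34187764 and Psme1 at 55578123, each upstream of its window. Their windows thus lie inside the annotated genes and miss the sequence before those starts. Each is written 5′ to 3′, with capitals for every match, on either strand, to 4 motifs: TTCNNNGAA (the GAS element, for gamma-activated site), a pair of GAAA with 2 letters between them (paired GAAA, as bound by interferon regulatory factors), TGACNNNGC (the antioxidant response element) and CCAAT.
Psmb8: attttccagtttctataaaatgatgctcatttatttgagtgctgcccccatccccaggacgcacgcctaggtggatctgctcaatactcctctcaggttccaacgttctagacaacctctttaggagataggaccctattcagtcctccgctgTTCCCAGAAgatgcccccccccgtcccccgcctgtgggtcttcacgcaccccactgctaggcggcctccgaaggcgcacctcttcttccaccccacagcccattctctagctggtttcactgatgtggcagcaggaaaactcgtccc
Psmb9: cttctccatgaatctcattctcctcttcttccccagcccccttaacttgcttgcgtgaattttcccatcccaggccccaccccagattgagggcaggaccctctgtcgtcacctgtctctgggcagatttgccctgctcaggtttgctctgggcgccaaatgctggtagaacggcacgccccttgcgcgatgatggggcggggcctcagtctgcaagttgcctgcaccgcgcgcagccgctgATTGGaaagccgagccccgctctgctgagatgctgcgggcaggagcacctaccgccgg
Psme1: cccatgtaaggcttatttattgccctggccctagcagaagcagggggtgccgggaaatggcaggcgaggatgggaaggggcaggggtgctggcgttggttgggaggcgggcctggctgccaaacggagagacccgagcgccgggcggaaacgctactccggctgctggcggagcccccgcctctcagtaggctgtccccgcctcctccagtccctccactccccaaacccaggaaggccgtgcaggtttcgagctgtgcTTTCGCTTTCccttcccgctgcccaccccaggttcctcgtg
Psmb5: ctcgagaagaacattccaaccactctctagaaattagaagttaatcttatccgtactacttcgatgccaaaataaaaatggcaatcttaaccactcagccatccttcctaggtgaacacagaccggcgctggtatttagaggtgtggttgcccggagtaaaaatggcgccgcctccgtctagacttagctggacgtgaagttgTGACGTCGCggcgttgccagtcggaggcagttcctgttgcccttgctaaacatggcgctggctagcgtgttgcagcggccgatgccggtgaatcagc
Psmb8 had a GAS match, Psmb9 a CCAAT match, Psme1 a paired GAAA match and Psmb5 an antioxidant element match, and none of these overlapped another. The GAS letters were in 1 of the 6 windows of the inducible genes (16.7%), in 2 of 38 windows of the other members (5.26%) and in 8.30% of all 32851 RefSeq promoter windows. Paired GAAA was in 1 of 6 (16.7%), in 4 of 38 (10.5%) and in 3.44% of all windows. The antioxidant element was in 0 of 6, in 6 of 38 (15.8%) and in 12.4% of all windows, and CCAAT in 1 of 6 (16.7%), in 13 of 38 (34.2%) and in 37.4% of all windows. These matches describe letters and not binding.

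Some cells held marker levels that go against their labels. Between 945351 and 5306777 reads and between 2397 and 10507 genes were recovered per cell, and the median number of genes was 7236 in dormant and 7647 in proliferating cells. In 6 dormant cells, from mice 1184, 244, 360 and 369, eCFP lay under 100 normalised reads, and these low-label cells include every dormant cell of mice 244 and 360. They had 11 to 18 of 18 pan-leukocyte genes above 0, a median of 168437 normalised reads of the myeloid gene Lyz2, and at most 9.40 of the epithelial gene Krt8. No proliferating cell was low in the label. The second label, luc2, was above 0 in all 57 cells, the low-label cells included, so this class rests on eCFP alone. At least 5 of the 18 pan-leukocyte genes were above 0 in 17 dormant cells, including all low-label cells, and in 13 proliferating cells. The summed level of the 18 genes ranged from 935 to 103153 in dormant and from 764 to 10059 in proliferating cells, and Ptprc, the defining one, was above 0 in 9 dormant and 3 proliferating cells. Differences between the states are therefore also given without the low-label cells, which leaves dormant means of 4 mice over all mice and 3 shared mice within mice. Each library batch held a single state, so effects of batch and of state cannot be told apart.

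The core of the proteasome was abundant in nearly every cell, while the immunoproteasome genes were scarce or patchy. On normalised reads per kilobase of transcript, the scale on which levels of different genes are compared here, the median over 57 cells was 2178 for Psma7, 2026 for Psmb6 and 2000 for Psma6, the first 3 of the 49. The alpha ring genes ranged from 631 to 2178 per kilobase and the constitutive beta ring genes from 538 to 2026, and all 14 were above 0 in at least 55 cells. The base ATPases lay between 442 and 843 per kilobase, a narrow band for genes whose products stand side by side in a single ring. The other base and lid genes spread from 70.1 for the lid gene Psmd13 to 1296 for Psmd14, the deubiquitinase of the lid. Assembly chaperones were lower, at 48.7 to 388 per kilobase, and so were the activators and inhibitor, at 12.4 to 108.

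**Figure D1:**
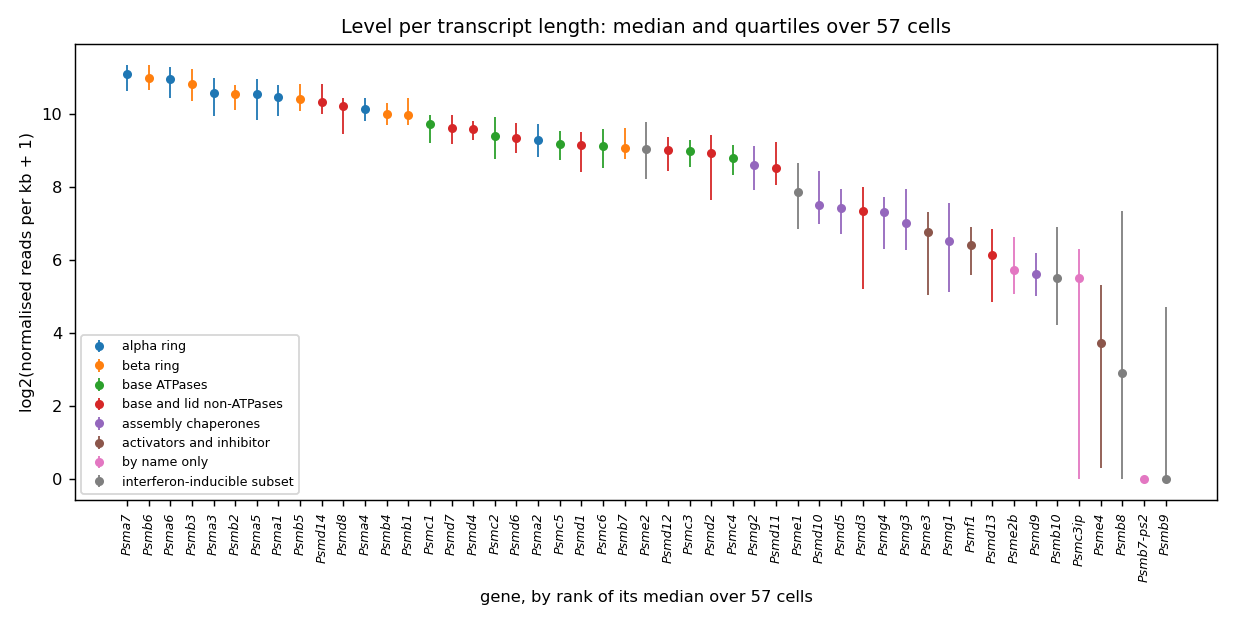
Level of each of the 49 genes as log2(normalised reads per kilobase + 1), ordered by rank, with points for the median over 57 cells, bars for the quartiles and colours for the role. Core ring genes fill most of the left end, and Psmb8 and Psmb9 stand at ranks 47 and 49 with wide or zero-bound quartiles.

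The inducible genes split into 2 kinds. The activator genes Psme2, at 529 normalised reads per kilobase (rank 25), and Psme1, at 231 (rank 32), sat among the cap subunits and were above 0 in 57 and 55 of 57 cells. The catalytic genes were at the bottom of the order, with medians of 44.8 per kilobase for Psmb10 (rank 44), 6.54 for Psmb8 (rank 47) and 0 for Psmb9 (rank 49). Reads of Psme2 and its close copy Psme2b could have been split between them in counting, so both levels are uncertain. Psma8 and Psmb11, tissue-specific subunits, were not analysed here.

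Psmb8 (ENSMUSG00000024338) encodes the inducible chymotrypsin-like subunit. It was above 0 in 14 of 28 dormant cells and in 21 of 29 proliferating cells, and its median over cells was 0.314 normalised reads in dormant and 41.4 in proliferating cells. The cells of the dormant group were of unlike kinds. The median was 1033 in the 6 low-label cells, which ranged from 0 to 1785. It was 0.628 in the 11 labelled dormant cells rich in leukocyte genes and 0 in the other 11 labelled dormant cells. In proliferating cells it was 85.7 in the 13 cells rich in leukocyte genes and 18.3 in the other 16. The highest levels in the dormant group thus came from cells low in eCFP.

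Psmb9 (ENSMUSG00000096727), the inducible counterpart of Psmb6, showed the sharpest split. It was above 0 in 5 of 6 low-label cells, in 5 of 11 labelled dormant cells rich in leukocyte genes and in 0 of the other 11 labelled dormant cells, a count that allows a share of up to 27.3% with reads of the gene. That limit covers counting error only and says nothing of cells that express the gene without a read, and 7 of these 11 cells came from mouse 1185. Among proliferating cells it was above 0 in 8 of 13 cells rich in leukocyte genes and in 5 of the other 16. Psmb10 (ENSMUSG00000031897), the inducible trypsin-like subunit, was more widespread, above 0 in 23 dormant and in 24 proliferating cells, with medians of 61.0 and 58.7 normalised reads. Its median was 303 in low-label cells, against 37.0 to 67.6 in the 4 kinds of labelled cell.

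The 3 inducible catalytic genes tended to be present in the same cells. All 3 were above 0 in 7 dormant cells and in 13 proliferating cells, which makes 20 of 57. Of the 23 cells with Psmb9, 21 also had Psmb8 and 22 had Psmb10, while 14 of the 34 cells without Psmb9 had Psmb8. Psmb10 was above 0 in 47 of the 57 cells, so its presence beside Psmb9 says little. In some of the 23 cells Psmb9 was at a few normalised reads or fewer, down to 0.628. Outside the low-label and leukocyte-rich cells, 0 of 11 dormant and 5 of 16 proliferating cells had all 3. These cells came unevenly from the mice: mouse 1185 gave 7 of the 11 dormant cells, and mouse 369 gave 3 of the 5 proliferating cells with all 3. In mouse 369 itself 0 of 2 such dormant and 3 of 7 such proliferating cells had all 3, and in mouse 1185 0 of 7 and 1 of 2. That cell of mouse 1185 had only 1.33 normalised reads each of Psmb8 and Psmb9. The cell of mouse 452 with all 3 had only 1.87 of Psmb8. Presence in these cells therefore rests on very few reads. The constitutive counterparts were present throughout: Psmb5 and Psmb7 were above 0 in all 57 cells and Psmb6 in 56.

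**Figure D2:**
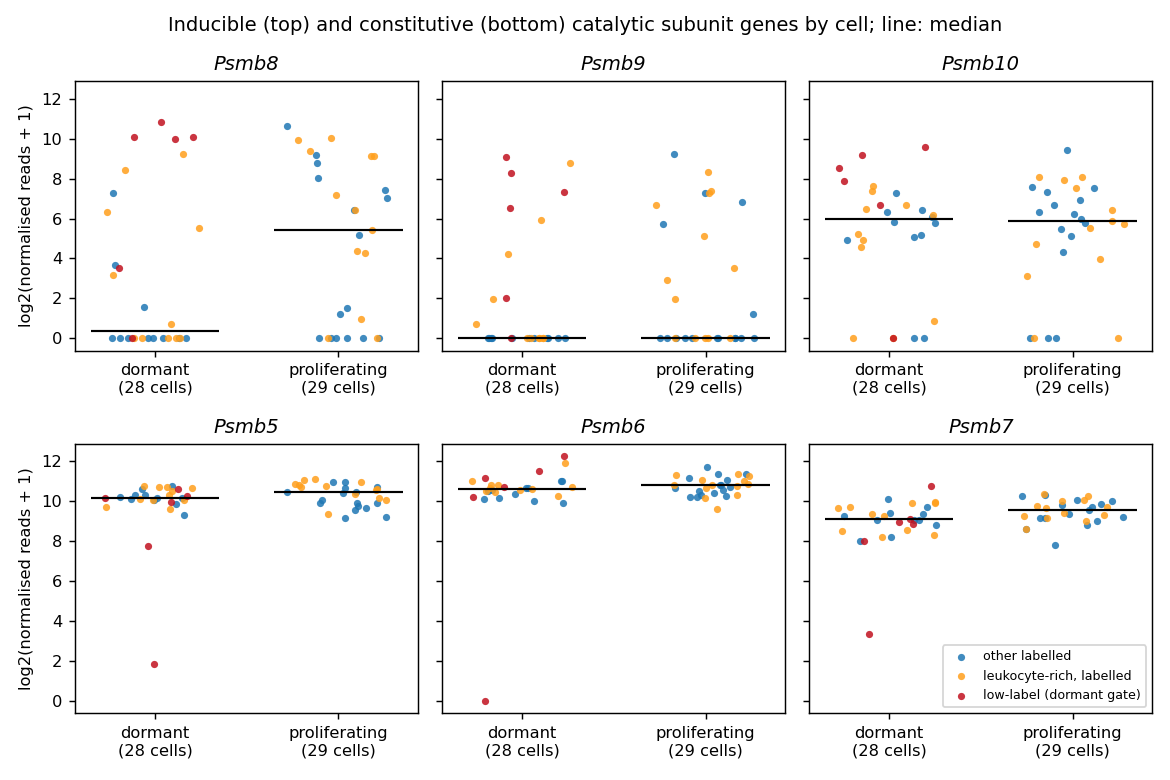
Each point is a cell and each vertical axis is log2(normalised reads + 1), with dormant cells left, proliferating cells right, lines at the median and colours for the kind of cell. Psmb8 is above 0 in 14 dormant and 21 proliferating cells. Its highest dormant levels are in low-label cells, which span 0 to 1785 normalised reads. Psmb5, Psmb6 and Psmb7 stay within a narrow band apart from a few low-label cells.

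States were compared over mice, each mouse and state giving the mean of log2(normalised reads + 1) over its cells, which counts cells at 0. A difference of such means therefore mixes level and number of cells. For genes at 0 in some cells it can be larger or smaller than the change in level. For Psmb8 these means ranged from 0 to 10.07 in dormant cells with a median of 4.40, and from 0 to 7.51 in proliferating cells with a median of 2.80, so the groups overlapped. The 2 highest dormant means, 10.07 in mouse 360 and 9.96 in mouse 244, came from low-label cells alone. The highest proliferating mean, 7.51, was that of mouse 369, where 12 of 13 cells had the gene. Mouse 452 was low in both states, at 0 in dormant and 1.45 in proliferating cells. Psmb8 averaged 4.97 ± 4.30 in dormant and 3.44 ± 2.83 in proliferating cells (SD, n = 6 mice each). The difference, dormant minus proliferating, was 1.53 (SE 1.68) with an adjusted p of 0.822 by limma.

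Psmb9 means ranged from 0 to 7.79 in dormant cells, with a median of 2.65, and from 0 to 4.05 in proliferating cells, with a median of 1.10. Psmb10 means ranged from 1.83 to 8.55 in dormant cells, with a median of 6.17, and from 0 to 6.60 in proliferating cells, with a median of 4.28. The order of mice was similar for all 3 genes, with mouse 360 or 244 highest among dormant means and mouse 369 highest among proliferating ones. The differences were 1.74 (SE 1.28) for Psmb9 and 1.68 (SE 1.35) for Psmb10, with adjusted p-values of 0.702 and 0.731 by limma. Psmb9 averaged 3.31 ± 3.26 in dormant and 1.56 ± 1.40 in proliferating cells, and Psmb10 5.72 ± 2.49 in dormant and 4.05 ± 2.51 in proliferating cells (SD, n = 6 mice each). The Psmb9 difference was thus larger than the SD of the proliferating means and smaller than that of the dormant means, and the Psmb10 difference was smaller than both SDs.

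Without the 6 low-label cells, the differences of the inducible catalytic genes over all mice became −1.02 (SE 1.46) for Psmb8, −0.32 (SE 0.85) for Psmb9 and 0.65 (SE 1.43) for Psmb10, each smaller than its SE. In the 3 mice with labelled cells of both states, Psmb8 was lower in dormant cells each time. Mouse 369 had means of 4.79 in labelled dormant and 7.51 in proliferating cells, mouse 1185 had 1.01 and 2.90, and mouse 452 had 0 and 1.45. The paired difference was −2.02 (SE 0.95), with an adjusted p of 0.999 by limma. For Psmb9 it was −1.55 (SE 0.76) and for Psmb10 −0.90 (SE 1.04), at the same adjusted p. With all cells, the differences within the 4 shared mice were −0.46 (SE 1.30) for Psmb8, 0.80 (SE 1.38) for Psmb9 and −0.20 (SE 1.10) for Psmb10, with adjusted p-values of 0.895, 0.831 and 0.952 by limma. The sign for Psmb9 turned on mouse 360, whose 2 dormant cells are both low-label: without that mouse the difference within mice was −1.21.

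With all cells, differences of the activator genes were smaller than their SE. Psme1 means ranged from 6.91 to 8.38 in dormant cells (median 8.07) and from 4.51 to 8.99 in proliferating cells (median 7.74), and every mean other than the 4.51 of mouse 268 was at least 6.91. Psme2 means ranged from 6.32 to 10.01 in dormant cells (median 9.15) and from 7.03 to 9.80 in proliferating cells (median 8.90). The differences were 0.49 (SE 0.85) for Psme1 and 0.23 (SE 0.76) for Psme2, with adjusted p-values of 0.895 and 0.950 by limma. Within the shared mice they were 0.14 (SE 0.79) and −0.16 (SE 0.73). Without low-label cells they were −0.12 (SE 0.98) and −0.45 (SE 0.82) over all mice. Within mice they were then −0.35 (SE 0.78) and −0.88 (SE 0.72), at an adjusted p of 0.999 by limma. The Psme2 value there was larger than its SE, and all 5 inducible genes were below 0, against 55.9% of all genes. In low-label cells the medians of Psme1 and Psme2 were 583 and 1048 normalised reads, and in dormant cells neither low-label nor rich in leukocyte genes 187 and 339.

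The share of inducible genes among the catalytic subunits sums this up within each cell, as Psmb8, Psmb9 and Psmb10 over all 6 catalytic genes on reads per kilobase. It averaged 9.70% ± 10.2 in dormant and 2.87% ± 3.58 in proliferating cells (SD, n = 6 mice each), and the ranges, 0.158% to 25.6% and 0% to 9.75%, overlapped. The dormant values above 10% belonged to mice 244 (25.6%), 360 (17.2%) and 369 (10.9%), all with low-label cells. Mouse 1184 also had a low-label cell, but that cell had a share of 0.106%. The mean of mouse 1184 was 3.19% with it and 3.96% without it. Leaving out all low-label cells, the dormant mean was 2.15% ± 1.80 over 4 mice, with a highest value of 3.96%. Single cells reached 34.9% in the dormant group and 39.2% in the proliferating group, the highest share of all being that of a labelled proliferating cell. The part that leukocyte RNA or whole leukocytes had in these values was not tested beyond leaving such cells out.

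**Figure D3:**
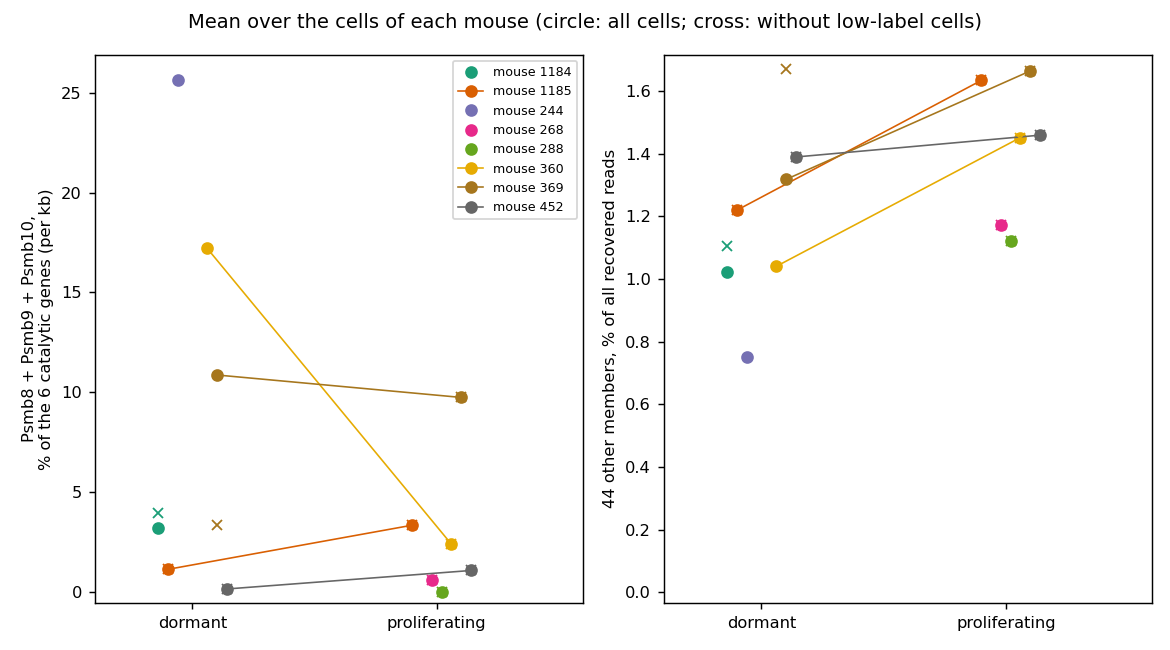
Left, inducible share of the catalytic genes in percent; right, percent of all recovered reads in the other 44 members; dormant left and proliferating right in each, circles for the mean over all cells of a mouse, crosses without low-label cells and lines joining the 4 shared mice. The high dormant circles on the left, 25.6% and 17.2%, have no cross because those mice held low-label cells only, and on the right the dormant circle is below the proliferating one in each shared mouse.

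The other 44 members are mostly housekeeping subunits. They made up 1.12% ± 0.23 of reads in dormant and 1.42% ± 0.23 in proliferating cells (SD, n = 6 mice each), with ranges of 0.750% to 1.39% and 1.12% to 1.66% that overlapped. In shared mice the share was 1.22% in dormant and 1.63% in proliferating cells of mouse 1185, 1.04% and 1.45% in mouse 360, 1.32% and 1.66% in mouse 369, and 1.39% and 1.46% in mouse 452. The dormant share was therefore lower in each of these 4 mice. Without low-label cells the dormant mean was 1.35% ± 0.25 over 4 mice, within the proliferating range, and in mouse 369 the share was 1.67% in labelled dormant and 1.66% in proliferating cells. The low-label cells had a median of 0.752%.

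No proteasome gene passed the test between states. Of the 49 genes 48 were tested, having been above 0 in at least 6 cells, and Psmb7-ps2, above 0 in 5 cells, was not. At an adjusted p under 0.05 limma called 0 of 48 members higher or lower, against 0% of 11843 genes over all mice and 0% of 11565 genes within the shared mice. The smallest adjusted p of any member was 0.443 over all mice and 0.536 within mice. edgeR on recovered reads called no member and 0% of genes in either comparison. DESeq2 called no member either, while over all mice it called 0.0676% of genes lower and 2.48% higher, and within mice 0.674% lower and 1.21% higher.

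Below that threshold most members lay lower in dormant cells, as did most of all genes tested when all cells were kept. How many members passed an unadjusted p depended on the cells and mice kept. Over all mice 32 of 48 members had a difference below 0, against 63.1% of all genes. At an unadjusted p under 0.05, limma put 5 of 48 lower and 0 higher, against 6.22% and 3.28% of all genes. Within the shared mice 44 of 48 were below 0, against 76.5% of all genes, with 8 lower and 0 higher at the unadjusted threshold, against 8.21% and 1.03%. Without low-label cells 29 of 48 members were below 0 over all mice, against 45.5% of all genes, and 0 were lower or higher at the unadjusted threshold, against 0.509% and 1.45%. Within mice 42 of 48 were then below 0, against 55.9% of all genes, with 2 lower (Psmb4 and Psmd1) and 1 higher (Psmg1), against 2.05% and 1.13%. A mouse left out also moved the count of lower members. Over all mice it was 9 without mouse 268, 3 without 360, and 2 without 244 or 369. Within mice it was 4 without mouse 360 and 2 without 369.

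The medians moved as well. The median difference of the 43 other members tested was −0.60 over all mice and −0.94 within mice, beside −0.35 and −0.72 for all genes. For the 5 inducible genes it was 1.53 over all mice, with 5 of 5 above 0, and −0.16 within mice, with 3 of 5 below 0. Of all genes 36.9% were above 0 over all mice and 76.5% below 0 within mice. Without low-label cells the medians over all mice were −0.32 for the inducible genes, −0.05 for the other members and 0.09 for all genes, and within mice −0.90, −0.34 and −0.11. With cells rescaled by the median of ratios, the median over all mice was −0.16 for all genes and −0.29 for the other members.

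**Figure D4:**
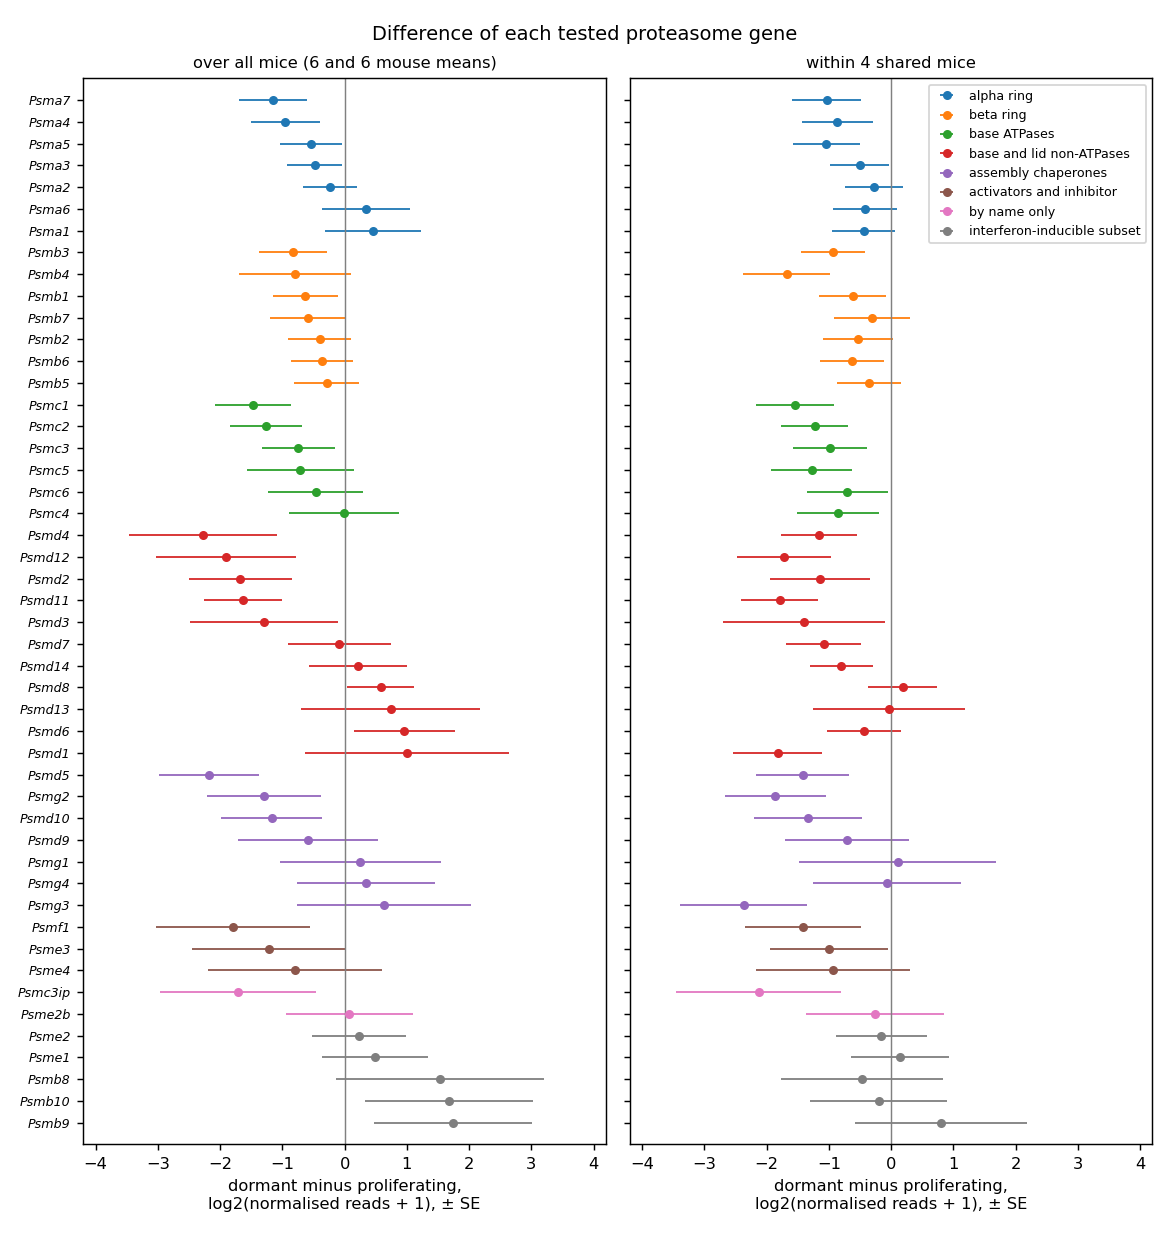
Difference of dormant minus proliferating mouse means, in log2(normalised reads + 1) with bars for the SE, for the 48 tested genes by role, over all mice on the left and within the 4 shared mice on the right. Most housekeeping subunits lie below 0 in both panels, as do 63.1% of all tested genes on the left and 76.5% on the right. Psmb8, Psmb9 and Psmb10 lie above 0 on the left and between −0.46 and 0.80 on the right, with wide bars.

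The alpha and beta rings form the barrel, and none of their genes passed the test. Of all genes 63.1% were below 0 over all mice and 76.5% within mice, and without low-label cells 45.5% and 55.9%. In the alpha ring 5 of 7 genes were below 0 over all mice and 7 of 7 within mice, with medians of −0.48 and −0.51. They ranged from −1.15 for Psma7 to 0.46 for Psma1 over all mice, and these genes were at −0.05 and 0.78 without low-label cells. In the beta ring 7 of 7 were below 0 in both comparisons, with medians of −0.60 and −0.62. Without low-label cells the alpha ring had 5 of 7 below 0 over all mice and 6 of 7 within mice, with medians of −0.05 and −0.18, and the beta ring 6 of 7 and 7 of 7, with medians of −0.13 and −0.33. Of the 3 constitutive catalytic genes, Psmb5, the counterpart of Psmb8, differed by −0.29 (SE 0.52), Psmb6 by −0.36 (SE 0.49) and Psmb7 by −0.60 (SE 0.61), each smaller than its SE. Without low-label cells these were 0.12, −0.13 and −0.16.

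Their mouse means were far tighter than those of the inducible genes. Psmb5 ranged from 8.83 to 10.37 in dormant cells (median 10.02) and from 9.23 to 10.86 in proliferating cells (median 10.28). Psmb6 ranged from 8.93 to 11.16 in dormant cells (median 10.57) and from 10.20 to 11.36 in proliferating cells (median 10.87). Psmb7 ranged from 7.88 to 9.83 in dormant cells (median 8.96) and from 8.99 to 10.03 in proliferating cells (median 9.35). The groups overlapped for all 3, and adjusted p-values by limma were 0.899, 0.857 and 0.805. The sign for Psmb5 turned with the scaling, to 0.14 under the median of ratios, and that of Psmb6 with the test, to 0.18 by edgeR.

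Of the 17 tested genes of the regulatory cap, 3 were lower at the unadjusted threshold over all mice and 5 within mice, against 6.22% and 8.21% of all genes. Without low-label cells these counts were 0 and 1, against 0.509% and 2.05%. All 6 base ATPases, the motor that unfolds substrates, were below 0 in both comparisons, with medians of −0.73 over all mice and −1.11 within mice. Of all genes 63.1% and 76.5% were below 0 there. Without low-label cells 3 of 6 were below 0 over all mice with a median of 0.04, against 45.5% of all genes. Within mice 6 of 6 were then below 0 with a median of −0.54, against 55.9% of all genes. Psmc1 and Psmc2 differed by −1.47 (SE 0.61) and −1.26 (SE 0.57) over all mice, at adjusted p-values of 0.463 and 0.490 by limma. Psmc1 means ranged from 7.55 to 10.30 in dormant cells (median 9.00) and from 9.97 to 10.71 in proliferating cells (median 10.52), so the groups overlapped. The 3 lowest dormant means, 7.55 in mouse 369, 7.77 in mouse 244 and 8.12 in mouse 360, came from mice with low-label cells. Mouse 1184, which also held a low-label cell, was not among these 3. The mean over cells was 6.81 in low-label cells, 10.30 in labelled dormant cells rich in leukocyte genes and 9.94 in the other labelled dormant cells, beside 10.46 and 10.45 in the same kinds of proliferating cell. Without low-label cells the differences over all mice were −0.43 (SE 0.45) for Psmc1 and −0.32 (SE 0.48) for Psmc2. Psmd11, a lid subunit, had the lowest unadjusted p of any member within mice, with a difference of −1.79 (SE 0.62) there and −1.64 (SE 0.62) over all mice, at adjusted p-values of 0.536 and 0.450 by limma. Without low-label cells it was −1.19 (SE 0.62) within mice and −1.12 (SE 0.66) over all mice. It is named here after its values were seen.

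Outside the inducible genes, other base and lid genes had the most negative and the most positive difference over all mice. Psmd4, a ubiquitin receptor, ranged from 0 to 10.21 in dormant cells (median 9.32) and from 9.14 to 10.34 in proliferating cells (median 10.07). The 0 was mouse 244, a single low-label cell, and the difference of −2.27 (SE 1.19) became −1.16 (SE 0.61) within the shared mice. Psmd12, a lid subunit, ranged from 2.40 to 9.98 in dormant cells (median 7.76) and from 5.02 to 10.68 in proliferating cells (median 10.02), a difference of −1.91 (SE 1.13). Mouse 244 was again the lowest dormant mean. Without leukocyte-rich cells, which leaves 3 dormant means, the differences were 0.11 for Psmd4 and 1.51 for Psmd12, and without low-label cells alone they were −0.09 and −0.31. Without low-label cells 4 of the 11 other base and lid genes were below 0 over all mice and 9 of 11 within mice, where all cells gave 6 and 10. Of all genes 45.5% and 55.9% were below 0 without low-label cells, and 63.1% and 76.5% with all cells.

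Psmd1, a scaffold of the base, had the most positive difference of the members outside the inducible genes, 1.01 (SE 1.64), and this too rested on a single cell. Its means ranged from 6.63 to 11.01 in dormant cells (median 9.31) and from 0 to 11.54 in proliferating cells (median 10.91). The 0 was the lone proliferating cell of mouse 288, and without that mouse the difference was −0.64. Within the shared mice it was −1.82 (SE 0.72), lower in dormant cells of all 4. The lid genes Psmd6 and Psmd13 differed by 0.96 (SE 0.81) and 0.74 (SE 1.43) over all mice, and by −0.43 (SE 0.59) and −0.04 (SE 1.22) within mice. Without low-label cells the differences over all mice were 1.28 for Psmd1, 0.86 for Psmd6 and 2.49 for Psmd13. Adjusted p-values by limma for these 5 genes were between 0.536 and 0.994 in both comparisons.

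The assembly chaperones guide ring and base formation and leave the finished particle. Of these, 4 of 7 were below 0 over all mice and 6 of 7 within mice, against 63.1% and 76.5% of all genes. Without low-label cells 3 of 7 and 5 of 7 were below 0, against 45.5% and 55.9% of all genes. Psmd5, a chaperone of the base, ranged from 5.39 to 9.79 in dormant cells (median 7.57) and from 8.93 to 10.80 in proliferating cells (median 9.66). Its difference of −2.18 (SE 0.80) had the lowest p of the members over all mice, at an adjusted p of 0.443 by limma, and was −1.42 (SE 0.75) within mice. Without low-label cells it was −1.20 (SE 0.77) over all mice, and without leukocyte-rich cells −0.08. The mean over cells was 5.45 in low-label cells, 8.45 in labelled dormant cells rich in leukocyte genes and 9.74 in the other labelled dormant cells, beside 9.96 and 9.16 in the same kinds of proliferating cell. Psmg3, a chaperone of the alpha ring, ranged from 3.91 to 7.44 in dormant cells (median 5.69) and from 0 to 8.07 in proliferating cells (median 6.89). It differed by 0.63 (SE 1.40) over all mice and by −2.37 (SE 1.02) within mice, lower in dormant cells of all 4, and without low-label cells by 1.23 (SE 1.56) and −1.26 (SE 0.97). Both proliferating mice that were low for it, 288 at 0 and 268 at 0.99, gave no dormant cells.

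The activators and inhibitor outside the inducible subset were below 0 in 3 of 3 cases in both comparisons. Of all genes 63.1% were below 0 over all mice and 76.5% within mice. Psmf1, a protein that inhibits the barrel in the test tube, ranged from 0 to 7.90 in dormant cells (median 5.62) and from 3.89 to 8.76 in proliferating cells (median 7.30). Its difference was −1.79 (SE 1.24) over all mice and −1.42 (SE 0.93) within mice, and over all mice 0.59 without leukocyte-rich cells and −0.14 without low-label cells. Psme3, the nuclear activator, and Psme4, an activator linked to histone breakdown in the testis, differed by −1.22 (SE 1.22) and −0.80 (SE 1.39) over all mice, and by 0.02 and −0.20 without low-label cells. Of the genes that share the name only, Psmc3ip differed by −1.72 (SE 1.25) and Psme2b by 0.08 (SE 1.02), and without low-label cells by −0.87 and −0.58. None passed, with adjusted p-values of 0.683 or more over all mice by limma.

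Across the 57 cells most housekeeping subunits went together, and Psmb8 went more with Psmb9, Psmb10 and Psme2 than with these. Spearman's rho was taken of each gene with the mean of the ring, base and lid subunits, leaving the gene itself out of that mean. Its median was 0.505 or more in the alpha ring, beta ring, base ATPases and activators. It was 0.493 in the other base and lid genes and 0.432 in the chaperones, but 0.112 in the inducible genes. Psmb8 had a rho of 0.687 with Psmb9, 0.661 with Psmb10 and 0.527 with Psme2. Against these stood 0.225 with the activator gene Psme1 and 0.277 with the mean of the ring, base and lid subunits. With the constitutive catalytic genes its rho was 0.162 for Psmb5, 0.274 for Psmb6 and 0.231 for Psmb7, and the highest with a housekeeping subunit was 0.383, for Psma5. With the number of pan-leukocyte genes above 0, rho was 0.404 for Psmb9, 0.310 for Psmb8 and 0.226 for Psmb10, and over the 51 labelled cells 0.285, 0.182 and 0.0608. Some housekeeping genes reached similar values, with 0.254 for Psmd8 and 0.228 for Psmb6 over all cells, and 0.348 for Psmb5, 0.315 for Psmd8 and 0.288 for Psmg4 over labelled cells. The cells share mice, libraries and depth, so these values are descriptions only.

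Genes that work with the proteasome were read from 2 lists. Of 29 tested genes of ubiquitin supply, shuttling and proteasome control, 16 were below 0 over all mice with a median of −0.36, and 26 within mice with a median of −0.73. These counts stand beside 63.1% and 76.5% of all genes, and these medians beside −0.35 and −0.72. Over all mice 3 were lower and 0 higher at the unadjusted threshold, against 6.22% and 3.28% of all genes, and none passed adjustment. Without low-label cells 13 were below 0 over all mice, against 45.5% of all genes. At the unadjusted threshold 1, Uchl5, was then lower, against 0.509%. Within mice 21 were then below 0 with a median of −0.30, against 55.9% and −0.11 for all genes. The most negative were Ddi2, the protease that activates the proteasome transcription factor Nfe2l1, at −2.39 (SE 1.25), and Uchl5, a deubiquitinase of the cap, at −2.26 (SE 0.79), and without low-label cells they were at −0.89 and −1.97. The most positive were the shuttle gene Ubqln2, at 1.17 (SE 1.26), and Ecpas, a proteasome adaptor, at 0.75 (SE 1.41). Of 20 genes of class I peptide loading and interferon gamma signalling, 17 were above 0 over all mice with a median of 0.78, and 11 within mice with a median of 0.52. Of all genes 36.9% were above 0 over all mice and 23.5% within mice. Over all mice 2 were higher and 0 lower at the unadjusted threshold, against 3.28% and 6.22% of all genes, and none passed adjustment. Without low-label cells 14 of the 20 were above 0 over all mice, beside 54.5% of all genes, with a median of 0.28 and 0 higher at the unadjusted threshold. Within mice 5 were then above 0, beside 44.1% of all genes, with a median of −0.52. H2-T23, a class Ib gene, was among the most positive, at 2.66 (SE 1.23), and at 2.09 (SE 1.28) without low-label cells. The most negative were the class I gene H2-Q4, at −0.43 (SE 0.41), and Tapbpl, a peptide editor, at −0.39 (SE 1.00), and without low-label cells they were at −0.55 and 0.01.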

How the data were processed

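Each sample is a sorted RM1 cell, with SMARTer full-length cDNA, added ERCC spike-in transcripts and Nextera XT libraries according to the labels' protocols. The submitters' processing notes list STAR, RSEM, GRCm38 and mm10. The deposited values are a signal per gene and cell that the authors normalised with BASiCS, per the series text. Every value above 0 was a whole multiple of its cell's smallest step (100% within 0.01 reads), so whole read counts were recovered from the deposited signal. The labels name 57 cells here. The series text gives 32 proliferating cells, of which 29 were analysed here.

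For testing, log2(value + 1) was averaged per mouse and state. The filter kept genes above 0 in 6 or more cells. The test was limma 3.58.1 (trend, robust) and Benjamini-Hochberg adjustment over all genes at 0.05, over all mice without a block and in the 4 shared mice with the mouse as block. Pairing comes from the labels, which give the mouse of each cell. Deviations of paired means correlated at −0.00643 in mouse 1185, 0.00317 in 360, 0.341 in 369 and 0.167 in 452. edgeR 4.0.16 and DESeq2 1.42.0 on recovered reads, and other pseudocounts, filters, averages, weights, scalings, cells and mice, were alternatives. Lengths are those of principal transcripts in GENCODE M21. The scripts were tested on simulated data. No pair of cells correlated above 0.891.

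The members, gene lists, the eCFP threshold of 100 and the tests were chosen with earlier results of these data known. Named were the inducible genes, their 3 counterparts, and the 4 most positive and 4 most negative other members over all mice, besides genes marked as chosen after seeing values and the lowest p-values per role. Of the pathway lists the most extreme genes in each direction over all mice were named, of which 1 is not reported here. Spike-in rows were left out of all tests. Counting intervals cover counting error only. Analyses used R 4.3.3 and Python 3.11.15.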

Additional observations from a re-analysis of the deposited data

Results flagged for a closer look

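In 6 of 32 groups of mouse means of the named genes, a single mouse stood apart by Dixon's criterion at the 95% level. Chance alone gives about 1 in 20, a rate this count cannot be set against, because 8 of the 16 genes were named for extreme differences and 4 of the 6 groups belong to them. Values are means of log2(normalised reads + 1). Psmd4 was 0 in dormant cells of mouse 244, against 7.52 to 10.21 in the other dormant means, and Psmf1 was 0 there too, against 5.23 to 7.90. That mean is a single low-label cell. Psmb5 was 8.83 in dormant cells of mouse 1184, against 9.89 to 10.37 in the other dormant means. The low-label cell of that mouse had 2.66 normalised reads of Psmb5. Its labelled dormant cells averaged 10.57, the highest of the labelled dormant means. Psme1 was 4.51 in proliferating cells of mouse 268, against 7.49 to 8.99, and Psmd12 was 5.02 there, against 9.41 to 10.68. That mean rests on 2 cells. Psmd4 was 9.14 in the proliferating cell of mouse 288, against 9.94 to 10.34 in the other proliferating means.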

How the results depend on the processing

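No member was called under any alternative run, by limma, edgeR or DESeq2. The count of members lower at an unadjusted p under 0.05, 5 over all mice and 8 within mice, ranged from 0 to 9 and from 0 to 12 over the limma alternatives. Besides the cells and mice given above it was 1 and 1 under the median of ratios, 2 and 1 without cells under 4000 genes, 0 and 0 without leukocyte-rich cells, 2 over all mice without means of 1 cell, and 3 within mice on the log of the mean and 12 weighted by cells. The median difference of the other members within mice was −0.94, and −0.18 by edgeR and −0.17 by DESeq2. That of the inducible genes over all mice was 1.53, and −0.0594 weighted by cells, −0.32 without low-label cells and 0.54 to 2.18 with a mouse left out, the lowest without mouse 244. Within mice it was −0.16 with the replicate block, −0.16 with no replicate block, and turned positive with a pseudocount of 10 (0.0279), under the median of ratios (0.29), without cells under 4000 genes (0.16), and without mouse 1185 (0.21) or 452 (0.17). The setting without cells under 4000 genes was chosen after seeing the data.

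Of 478 gene differences under alternatives 62 had the opposite sign, and 2 of 24 gene results kept theirs throughout. Causes were not tested. Over all mice these were, weighted by cells, Psmb8 −1.66, Psmb9 −0.58, Psmb10 −0.0594, Psmd1 −0.80, Psmd6 −0.20 and Psmg3 −0.48. Without low-label cells they were Psmb8 −1.02, Psmb9 −0.32, Psme1 −0.12, Psme2 −0.45 and Psmb5 0.12. Without leukocyte-rich cells they were Psmb8 −1.50, Psme2 −0.41, Psmb5 0.25, Psmd4 0.11, Psmd12 1.51 and Psmf1 0.59. Without means of 1 cell they were Psmb8 −0.15, Psme2 −0.16, Psmd1 −0.72 and Psmg3 −0.61. By edgeR they were Psmb5 0.0323, Psmb6 0.18 and Psmd1 −0.24, and by DESeq2 0.13, 0.25 and −0.13. Psme1 was −0.42 without cells under 4000 genes, and Psmb5 0.14 under the median of ratios.

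With a mouse left out over all mice, Psme1 ranged from −0.0936 to 0.86 (turned without 268), Psme2 from −0.0785 to 0.52, Psmd1 from −0.64 to 2.13 and Psmd13 from −0.0655 to 1.69 (without 288), and Psmg3 from −0.37 to 1.45 (without 268 or 288). Within mice, Psmb8 ranged from −1.95 to 0.22 (without 1185 or 369), Psmb9 from −1.21 to 1.70 (without 360), Psmb10 from −0.57 to 0.28 and Psme2 from −0.56 to 0.21 (without 1185 or 452), and Psme1 from −0.0758 to 0.65 (without 360 or 369).

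Other values within mice that turned were Psmb8 0.0279 with a pseudocount of 10. Psmb9 was −0.89 on the log of the mean, −0.19 weighted by cells, −1.55 without low-label cells, −1.92 by edgeR and −2.30 by DESeq2. Psme1 was −0.35 without low-label and −0.26 without leukocyte-rich cells. Psme2 was 0.14 on the log of the mean, 0.29 under the median of ratios, 0.37 without cells under 4000 genes, 0.43 by edgeR and 0.45 by DESeq2. Under the median of ratios Psmb10 was 0.20, Psmb5 0.0703 and Psmb7 0.12, and Psmb6 was 0.11 by edgeR and 0.12 by DESeq2. Without leukocyte-rich cells Psmb9 passed the filter in too few cells and was not tested. Only 6 mice a state, some with 1 or 2 cells, limit the precision.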

Other observations

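The mean level per kilobase of the 14 core ring genes, divided by that of the base and lid genes, had a median of 2.41 in dormant and 2.27 in proliferating cells. Per mouse the medians ranged from 1.98 to 3.61 in dormant and from 1.91 to 2.87 in proliferating cells. In labelled dormant cells the median over cells was 2.27. The number of the 49 members above 0 per cell had a median of 46 in dormant and 47 in proliferating cells, with lowest values of 23 and 25.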
